A study of Rattus norvegicus with 35 samples.

Results

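Ligation of the abdominal aorta, which raises the pressure against which the left ventricle pumps, altered gene expression differently 1 day and 6 days after the operation. The quantity described here is a difference of differences. For each probe the effect of ligation at a day is the mean log2 level of ligated arrays minus that of sham arrays, and the change is the effect at day 6 minus the effect at day 1. It rests on 23 of the 35 arrays of the series and on 8711 of 22523 probes, those detected (detection p under 0.01) on at least 5 arrays of day 1 or of day 6. Of the probes tested, 6655 carried a gene symbol and stood for 6539 genes. Just inside that limit, the 216 probes detected on exactly 5 arrays of their better day had a median log2 level of 5.76, and the 238 just outside it, detected on 4, had 5.70.

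The rats were male and of the Wistar strain, and total RNA of the left ventricle was hybridised to Illumina BeadChips, which carry each probe on many beads. The 4 groups were ligated and sham animals at day 1 (6 arrays each), ligated animals at day 6 (5 arrays) and sham animals at day 6 (6 arrays). The age of the animals, the degree of narrowing and the pressure reached are not given in the sources used here, and the labels count animals per group without saying that each array is 1 animal, so p-values measure the spread between these arrays. No array is shared between the days. Each day was run on a BeadChip of its own, which makes the day and the chip inseparable in any level, so that they cannot be told apart and only differences within a day were compared between days.

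A ventricle under a raised load activates stress genes in its muscle cells within hours, and cardiomyocytes enlarge by making more protein, which calls on the folding machinery of the endoplasmic reticulum (ER). Over the following days fibroblasts and endothelial cells divide, macrophages accumulate and extracellular matrix is laid down. The secreted proteins of this later phase include matricellular proteins, which sit in the matrix and signal to cells rather than bear load, and proteins of the complement and acute phase systems.

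Cell type markers were counted as detected where p was under 0.01 on at least 1 of the 23 arrays, a lenient criterion. It held for 11 of 11 cardiomyocyte, 14 of 14 fibroblast, 9 of 9 endothelial and 17 of 17 macrophage markers on the array. It also held for 8 of 14 T and natural killer cell markers. Of 14 neutrophil markers 8, Mpo and Elane among them, were detected on no array. Detected on every array were 11 cardiomyocyte, 13 fibroblast, 7 endothelial and 11 macrophage markers, and 6620 of all 22523 probes. The neutrophil and the T and natural killer cell markers had 2 each. The share of probes detected ran from 33.7% to 40.3% per array. At day 1 chip positions A to F held ligated and G to L held sham samples only, and on that day position cannot be told apart from operation, whereas at day 6 both operations lay in both sets of positions. Detected probes made up 2.19 percentage points more of a ligated than of a sham array on day 1 (p = 0.0303, exact permutation test, two-sided) and 0.683 more on day 6 (p = 0.528, same exact test). The change of the ligated minus sham difference in brightness, as log2 of the 75th percentile of the scanner signal, was -0.18 (two-sided exact permutation p = 0.434), and that in detection was -1.51 percentage points (p = 0.336, exact permutation test, two-sided). With brightness as a covariate, 32 of the 33 probes described next still passed. The part of the detected share was not tested. Ligated replicates 1 and 2 of day 6 were the brightest of the 23 arrays, with 75th percentiles of 375 and 365 intensity units against 185 to 320 elsewhere, and they also lay farthest from their group's mean level.

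The change passed the test (limma, adjusted p under 0.05) for 33 of 8711 probes, a share of 0.379%. The effect was higher at day 6 for 14 of them (0.161%) and lower for 19 (0.218%). With median scaling in place of quantile normalisation the split was 6 higher and 36 lower, and the median change of all probes shifted to -0.27. Of the 33 probes 17 still passed, and all kept their direction. Passing probes changed by between 0.59 and 2.55 on the log2 scale, whereas over all probes the median size of the change was 0.20 and its median standard error (SE) 0.22. At an unadjusted p under 0.05 there were 1109 probes (12.7%). Within the days, 2144 probes (24.6%) differed between ligated and sham animals at day 1, 991 of them higher (11.4%) and 1153 lower (13.2%) in ligated animals. At day 6 1504 probes (17.3%) differed, with 707 higher (8.12%) and 797 lower (9.15%). Of the 2216 probes called on 1 day only, 27 (1.22%) had a change that passed, so a call on 1 day and none on the other was seldom a tested difference between the days. All 6 probes called in opposite directions passed, and none of the 710 called in the same direction on both days did. Since the change is the difference of the effects, opposite calls give large changes by construction, and this adds no separate support. Across all 8711 probes the effects of the days had Pearson's r = 0.66, a description over probes that are not independent and that share their arrays within a day.

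The number of calls depended on single arrays. All 33 probes kept their direction whichever array was left out. Probes picked for small p-values on these same arrays could hardly do otherwise, so this adds little support. The number of calls ran from 13 to 94. It was 94 without ligated replicate 6 of day 1, 69 and 60 without ligated replicates 2 and 1 of day 6, and 58 without sham replicate 4 of day 6. It was 13, 18 and 20 without sham replicates 3, 5 and 6 of day 1, 19 and 21 without ligated replicates 1 and 4 of day 1, and 14 and 19 without sham replicates 2 and 6 of day 6. Without both of the brightest ligated arrays of day 6, a choice made after seeing the data, 414 probes passed (231 higher, 183 lower), all 33 among them. With the set of positions as a block 12 passed, 5 of them among the 33. The position term of that fit rests on the day 6 arrays alone, because position and operation coincide at day 1. That leaves the day 1 effect and the change poorly determined, so calls lost in that fit do not tell position from operation.

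**Figure D1:**
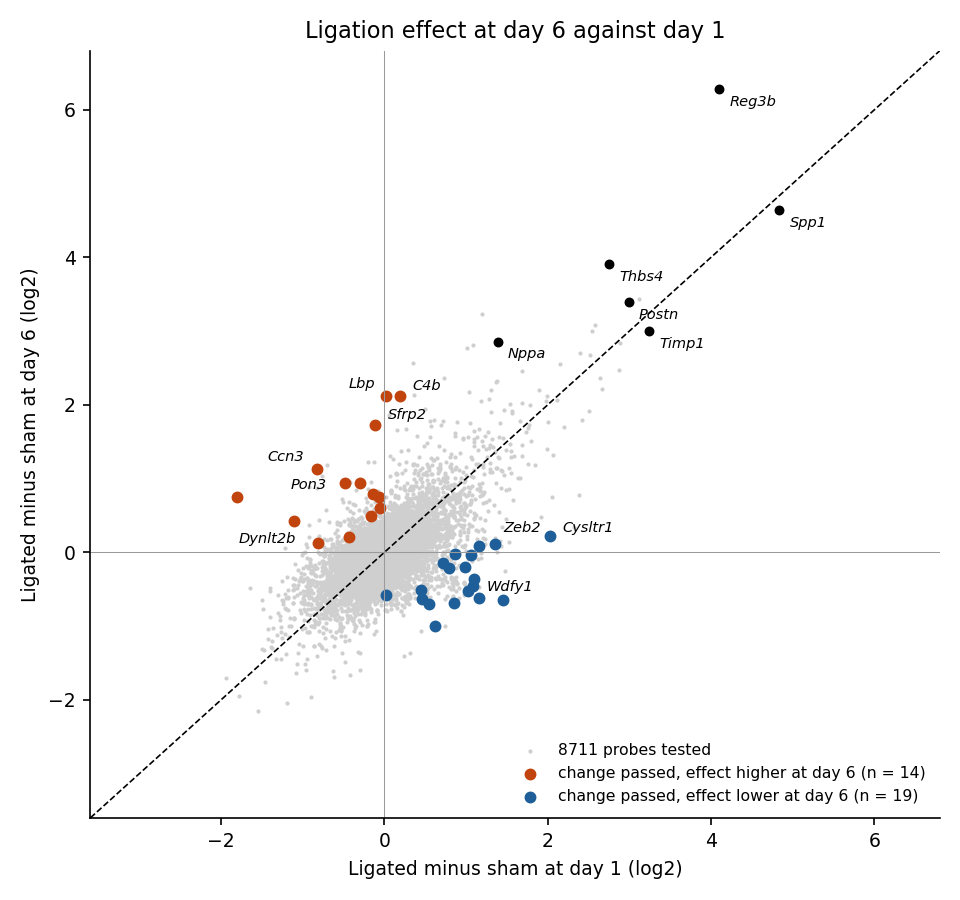
Effect of ligation (ligated minus sham, log2) at day 6 on the vertical axis against day 1 on the horizontal axis, 1 point per probe, with the line of equal effects dashed. The 14 probes in orange and 19 in blue had a change that passed, while Spp1, Timp1 and Postn, in black, lie near the line and Reg3b, Thbs4 and Nppa above it without passing. Cysltr1 was not detected in 3 of the 4 groups.

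Of the 12 named genes whose effect was higher at day 6, the steadiest were Ccn3 and Lbp. Ccn3, a matricellular protein of the CCN family, was the only named gene called in opposite directions on the days. Its log2 level at day 1 ran from 7.17 over a median of 7.49 to 7.65 in sham animals and from 5.97 over 6.60 to 7.20 in ligated animals. The range at day 6 was 7.21 over 7.34 to 7.87 in sham animals, and the level was 8.77, 8.39, 8.11, 8.42 and 9.17 in the 5 ligated animals. The ligated arrays were thus the lower at day 1, where 1 of them reached the lowest sham array, and all above the sham arrays at day 6. Ccn3 fell by 0.82 ± 0.18 (SE, adjusted p = 0.00339) at day 1 and rose by 1.12 ± 0.19 (adjusted p = 0.000661) at day 6. The change was 1.95 ± 0.27 on the log2 scale (3.86-fold, adjusted p = 0.00143), it passed without any 1 of the 23 arrays, and within the sets of positions at day 6 the effect was 1.20 (A to F) and 1.05 (G to L).

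Lbp encodes the acute phase protein that hands bacterial lipopolysaccharide to Cd14. At day 1 its log2 level was 6.19, 6.51 and 6.61 (lowest, median, highest) in sham and 6.24, 6.41 and 6.99 in ligated animals. At day 6 the sham animals had 5.90, 6.46 and 6.77 and the 5 ligated animals 9.39, 8.37, 7.75, 7.72 and 9.32. The groups overlapped throughout at day 1 and were fully apart at day 6. The effect was 0.02 ± 0.24 at day 1 and 2.12 ± 0.25 at day 6, a change of 2.10 ± 0.35 (4.28-fold, adjusted p = 0.00584) that also passed in all 23 fits without 1 array. In bulk tissue more cells of a type and more RNA per cell cannot be told apart, here and in all results that follow.

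C4b, a component of the complement system, had 6.95, 7.48 and 7.81 in sham and 6.84, 7.35 and 8.79 in ligated animals at day 1. Its levels at day 6 were 6.12, 7.13 and 7.26 in sham animals and 8.90, 8.91, 8.60, 9.15 and 9.87 in the ligated ones. The groups separated only on the later day. The effect went from 0.19 ± 0.28 to 2.12 ± 0.29, a change of 1.93 ± 0.40 (adjusted p = 0.0282), which passed in 14 of the 23 fits without 1 array, with an adjusted p of at most 0.0656 in the others. Sfrp2, a secreted modulator of Wnt signalling, was near the detection limit outside 1 group: it was detected on 1 of 6 sham and 1 of 6 ligated arrays at day 1, on 2 of 6 sham arrays at day 6 and on 5 of 5 ligated arrays at day 6. Its level in those 5 was 6.89, 8.22, 7.83, 6.92 and 7.69, against at most 6.70 in the 18 other arrays. Its change was 1.83 ± 0.36 (adjusted p = 0.0244). Sfrp2 passed the filter only with the ligated arrays of day 6, where it was high, so its p-values add no support.

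Apoe, the apolipoprotein that macrophages among other cells secrete, was at 9.90, 10.21 and 10.55 in sham and 9.44, 10.03 and 10.17 in ligated animals at day 1. On the later day it was at 9.82, 10.62 and 10.84 in sham animals and 11.28, 12.13, 10.81, 11.36 and 11.70 in ligated animals. The ligated arrays lay mostly above the sham arrays at day 6, with 1 of 5 just under the highest sham array. The change of 1.24 ± 0.28 (adjusted p = 0.0483) passed in 7 of the 23 fits without 1 array and was at most 0.0965 in the others. Pon3, a lactonase carried on high-density lipoprotein, had an effect of -0.48 ± 0.20 at day 1 and 0.94 ± 0.21 at day 6. Ligated levels at day 6 were 8.35, 8.48, 7.08, 8.03 and 8.23, the third of them inside the sham range of 6.41 to 7.48. The change was 1.42 ± 0.28 (adjusted p = 0.0244), and only leaving out sham replicate 3 of day 1 ended the call (adjusted p = 0.0533).

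Grn (progranulin, needed for lysosomal function) was at 10.56, 11.31, 10.86, 10.57 and 10.90 in ligated animals at day 6 and at no more than 10.22 elsewhere. The change was 0.93 ± 0.19 (adjusted p = 0.0244). The call ended without sham replicate 3 of day 1 (0.0533), sham replicate 2 of day 6 (0.0537) or sham replicate 6 of day 6 (0.0513), each an adjusted p. Npc2, which moves cholesterol out of lysosomes, was at 12.41, 13.02, 12.56, 12.49 and 12.68 in ligated animals at day 6 and at most 12.27 elsewhere, a change of 0.66 ± 0.14 (adjusted p = 0.0374) that passed in 13 of the 23 fits. Mgp, a secreted inhibitor of calcification, was among the brighter probes: ligated animals at day 6 had 15.08, 14.78, 14.71, 14.84 and 15.24, and no other array exceeded 14.40. The change of Mgp was 0.81 ± 0.15 (adjusted p = 0.019) and passed in all 23 fits. For Sfrp2, Grn, Npc2 and Mgp, ligated animals at day 6 thus stood above every other array of both days, although sham levels of different days also differ by BeadChip.

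Dynlt2b, a light chain of dynein motors, took another course. It fell at day 1 by 0.81 ± 0.12 (adjusted p = 0.00017), with the ligated arrays between 5.75 and 6.33 and the sham arrays between 6.59 and 7.17. Those ligated levels were near the detection limit, with Dynlt2b detected on 4 of the 6 arrays, which limits the size of the fall. The effect at day 6 was 0.13 ± 0.13. The change of 0.94 ± 0.18 (adjusted p = 0.0216) therefore came with a fall that was no longer seen at day 6. The 2 remaining named genes passed with smaller changes and were picked after their values were seen. Ube2l6, the conjugating enzyme for the ubiquitin-like protein Isg15, changed by 0.66 ± 0.14 (adjusted p = 0.0274) and passed in 15 of the 23 fits without 1 array. Aco1, the cytosolic aconitase that also binds iron-responsive RNA elements, changed by 0.64 ± 0.14 (adjusted p = 0.0497), from an effect of -0.43 ± 0.10 to 0.20 ± 0.10, and passed in 6 of the 23 fits, with an adjusted p of up to 0.107 in the others.

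**Figure D2:**
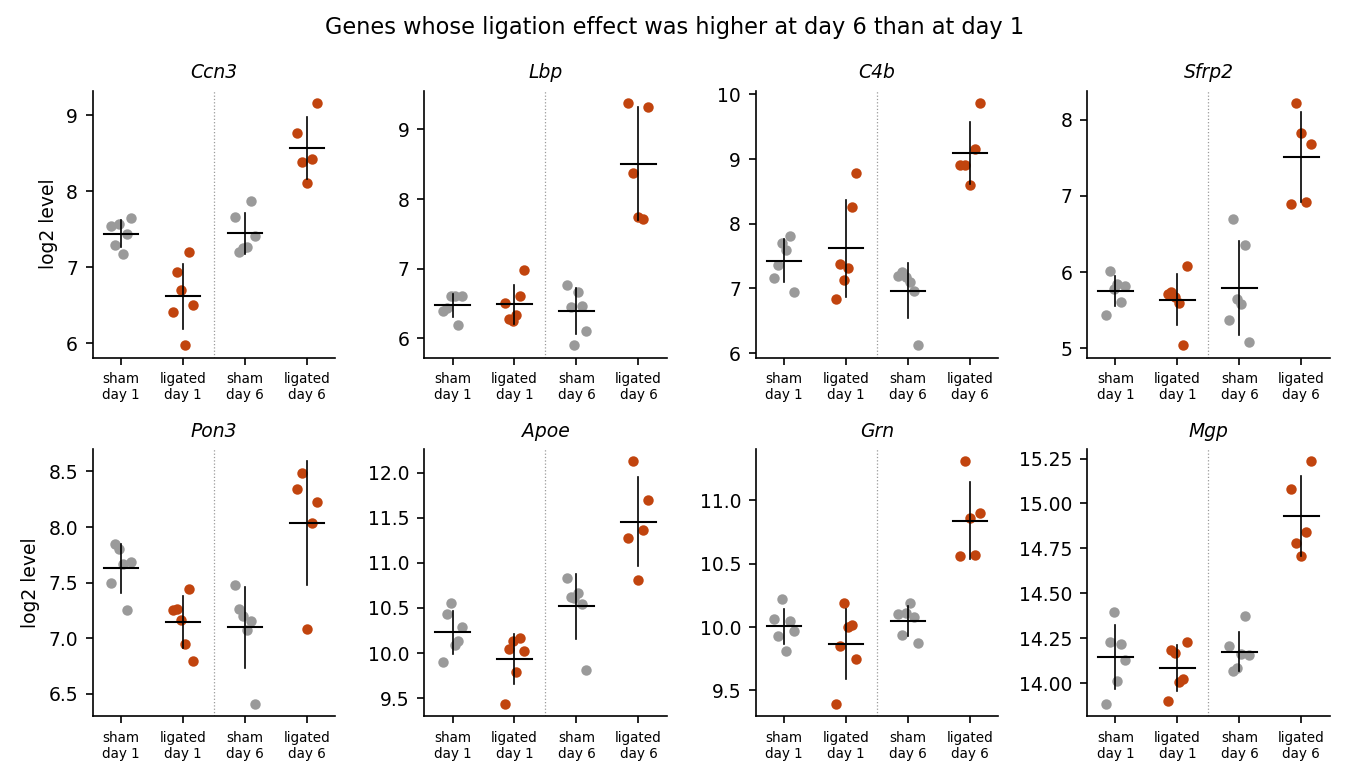
Log2 level of 8 genes whose ligation effect was higher at day 6, 1 point per array, ligated in orange and sham in grey, with the group mean and SD as black lines. The groups overlap or run the other way at day 1 (Ccn3, Pon3), and at day 6 the 5 ligated arrays lie at or above the top of the sham group, apart from 1 array of Pon3 and 1 of Apoe.

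Of the 7 named genes whose effect was lower at day 6, Hspa5 belongs to a list of 27 tested genes of ER chaperones and the unfolded protein response. Hspa5 encodes BiP, the major chaperone of the ER and the sensor that releases the stress receptors Ern1, Eif2ak3 and Atf6 when unfolded protein accumulates. Its log2 level at day 1 was 13.02, 13.18 and 13.51 in sham and 13.80, 14.11 and 14.41 in ligated animals. At day 6 it was 13.81, 14.14 and 14.26 in sham animals and 14.16, 14.21, 13.85, 13.99 and 14.02 in ligated animals. The groups were fully apart at day 1 and mixed at day 6, where the sham arrays reached levels that only ligated arrays had at day 1. Since each day is 1 BeadChip, a shift of the sham animals and a shift of the array cannot be told apart in that level. The effect was 0.87 ± 0.12 (adjusted p = 6.74e-05) at day 1 and -0.03 ± 0.13 at day 6, and the change of -0.90 ± 0.17 (adjusted p = 0.0235) passed in all 23 fits without 1 array. With positions as a block the change of Hspa5 was -0.66 and did not pass (adjusted p = 0.279), in a fit that leaves the day 1 effect poorly determined.

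Of the 27 genes, 17 rose at day 1 and 0 fell, where 11.2% of all 6539 genes rose, and at day 6 4 rose and 0 fell, where 8.63% of all genes rose. Hspa5 alone had a change that passed, where 0.0918% of all genes were lower and 0.184% higher. The median change of the list was -0.23, with 6 of 27 genes above 0, against 0.00 and 50.4% for all genes. Hsp90b1, the ER form of Hsp90, had an effect of 1.01 ± 0.14 at day 1 and 0.22 ± 0.15 at day 6 (change -0.80 ± 0.21, adjusted p = 0.0815). Creld2, a disulfide isomerase, had 1.44 ± 0.25 and 0.34 ± 0.26 (change -1.10 ± 0.37, adjusted p = 0.178), and the secreted ER protein Manf had 0.71 ± 0.14 and 0.21 ± 0.15 (change -0.49 ± 0.20, adjusted p = 0.288). The 4 genes that rose on both days were P4hb, a collagen-modifying disulfide isomerase, Sdf2l1, Sec61b and Ssr2, the last pair parts of the translocon through which proteins enter the ER. The count at day 6 was 1 without ligated replicate 2 of that day and 0 under median scaling, where 16 rose at day 1. Under the position block, which leaves the day 1 effect poorly determined, 0 of the 27 were called at day 1.

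Promoters of several ER chaperone genes carry the ER stress element, to which Atf6 and Nfy bind. Its sequence is shown here as a known feature of such promoters, although most list members searched had none. It was searched as CCAAT and CCACG separated by 9 bases, on both strands, in the RefSeq promoters of build GRCr8 (300 bases around each gene start). CCAAT and CCACG are also motifs of their own, and CCACG alone was in 31.6% of all promoters. The whole element was in 22 of 33469 promoters (0.0657%) and in 8 of the 29 list members that the table holds (27.6%). The promoter of Hspa5, on the plus strand at chr3:38452766-38453065, has 1 match, in capitals.
Hspa5 promoter: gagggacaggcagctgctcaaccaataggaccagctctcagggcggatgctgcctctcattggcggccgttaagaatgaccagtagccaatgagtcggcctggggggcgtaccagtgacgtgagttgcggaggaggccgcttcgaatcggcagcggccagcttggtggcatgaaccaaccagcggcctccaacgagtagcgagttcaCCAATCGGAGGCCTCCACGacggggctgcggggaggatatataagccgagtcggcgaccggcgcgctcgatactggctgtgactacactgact
Canx and Derl3 also carry the element, which is not shown for them. The element alone is read 5′ to 3′ on the strand that carries it, with CCAAT and CCACG in capitals. It was as follows in 4 list members with a change of -0.65 or lower and in 2, Calr and Xbp1, with changes of -0.23 and -0.31.
Hspa5, chromosome 3: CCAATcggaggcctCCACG
Hsp90b1, chromosome 7, upstream copy: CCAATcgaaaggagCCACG
Hsp90b1, chromosome 7, copy nearer the start: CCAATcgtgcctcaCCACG
Creld2, chromosome 7: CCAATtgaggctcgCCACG
Dnajc3, chromosome 15: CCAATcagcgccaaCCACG
Calr, chromosome 19: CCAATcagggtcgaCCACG
Xbp1, chromosome 14: CCAATcgcagacggCCACG
Of the 7 tested genes with an element 5 rose at day 1 and 0 at day 6, with median effects of 0.87 and 0.25 and a median change of -0.65. Of the 16 tested genes whose promoter had none, 9 rose at day 1 and 4 at day 6, with median effects of 0.39 and 0.26 and a median change of -0.04. The median effect at day 6 was thus about the same with and without an element. Tested list members whose promoter was not among those searched, Manf for one, are in neither group. Members and split were not tested. A match is a description of these letters and not a site shown to be used.

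Nfil3, a repressor that binds the same sites as the PAR bZIP factors of the circadian clock, resembled Hspa5. Its log2 level at day 1 was 8.05, 8.24 and 8.34 in sham and 8.86, 9.25 and 9.93 in ligated animals. At day 6 it was 9.85, 9.99 and 10.40 in sham animals and 10.30, 9.63, 10.23, 10.16 and 9.85 in ligated animals. All ligated arrays exceeded all sham arrays at day 1, and the groups were mixed at day 6 at a level above most arrays of day 1. In that level the day and the BeadChip cannot be told apart. The effect went from 1.06 ± 0.16 (adjusted p = 0.000109) to -0.04 ± 0.16, a change of -1.10 ± 0.22 (adjusted p = 0.0274). The call ended, with adjusted p between 0.0525 and 0.0541, without ligated replicate 5 or sham replicates 3 or 5 of day 1, or sham replicates 2 or 6 of day 6. Of the 10 clock genes tested Nfil3 alone passed. Bhlhe40, a clock-linked repressor, had an effect of -0.58 ± 0.18 at day 1 and 0.39 ± 0.18 at day 6 (change 0.97 ± 0.25, adjusted p = 0.0823). Cry1 had a change of -0.68 ± 0.26 (adjusted p = 0.245). Its sham level lay between 8.24 and 8.76 at day 1 and between 10.04 and 10.46 at day 6, which the BeadChip of each day could also give. The hour at which the hearts were taken is not given in the sources used here.

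Snrnp48, a protein of the minor spliceosome, had the steadiest change in this direction among named genes. Ligated arrays ran from 10.20 over 10.31 to 10.73 and sham arrays from 9.39 over 9.58 to 9.76 at day 1. At day 6 sham arrays ran from 9.25 over 9.36 to 9.87, and the ligated ones were at 9.02, 9.48, 9.28, 9.28 and 9.12. Ligated arrays stood above all sham arrays at day 1, and the groups overlapped at day 6. The effect was 0.79 ± 0.11 and then -0.22 ± 0.12, a change of -1.01 ± 0.17 (adjusted p = 0.00584) that passed in all 23 fits without 1 array.

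Zeb2, a transcriptional repressor of epithelial genes, ran from 7.31 over 7.48 to 7.75 in ligated and from 5.55 over 6.20 to 6.52 in sham animals at day 1. At day 6 it was detected on 1 of 6 sham and 1 of 5 ligated arrays. The change was -1.24 ± 0.28 (adjusted p = 0.0497), from 1.35 ± 0.19 to 0.11 ± 0.20, and passed in 6 of the 23 fits. Dffa, the inhibitor of the caspase-activated DNase, changed by -0.87 ± 0.19 (adjusted p = 0.0484), from 0.72 ± 0.13 to -0.14 ± 0.14, and passed in 5 of the 23 fits. For both, the largest adjusted p without 1 array was 0.0965, without sham replicate 3 of day 1.

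Wdfy1, an endosomal adaptor, is measured by 2 probes. The dimmer probe changed by -1.45 ± 0.27 (adjusted p = 0.0216), from 1.10 ± 0.19 to -0.36 ± 0.20, and passed in all 23 fits. The brighter one had a change of -0.92 ± 0.39 (adjusted p = 0.318), in the same direction. Cysltr1, a receptor for cysteinyl leukotrienes, was detected on 6 of 6 ligated arrays at day 1 and on 0 arrays of the other 3 groups. Its ligated log2 levels at day 1 ran from 6.26 over 7.14 to 8.14. Against the lowest level detected on the sham arrays, ligated animals were at least 2.19-fold higher at day 1. The limma fit used the measured sham levels, which were below detection, and its adjusted p of 1.54e-05 does not belong to that fold. Cysltr1 passed the filter only through the ligated arrays of day 1, where it was high, so its p-values add no support. Since both groups were below detection at day 6, no fold is given for that day, although the change passed (adjusted p = 0.0216).

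**Figure D3:**
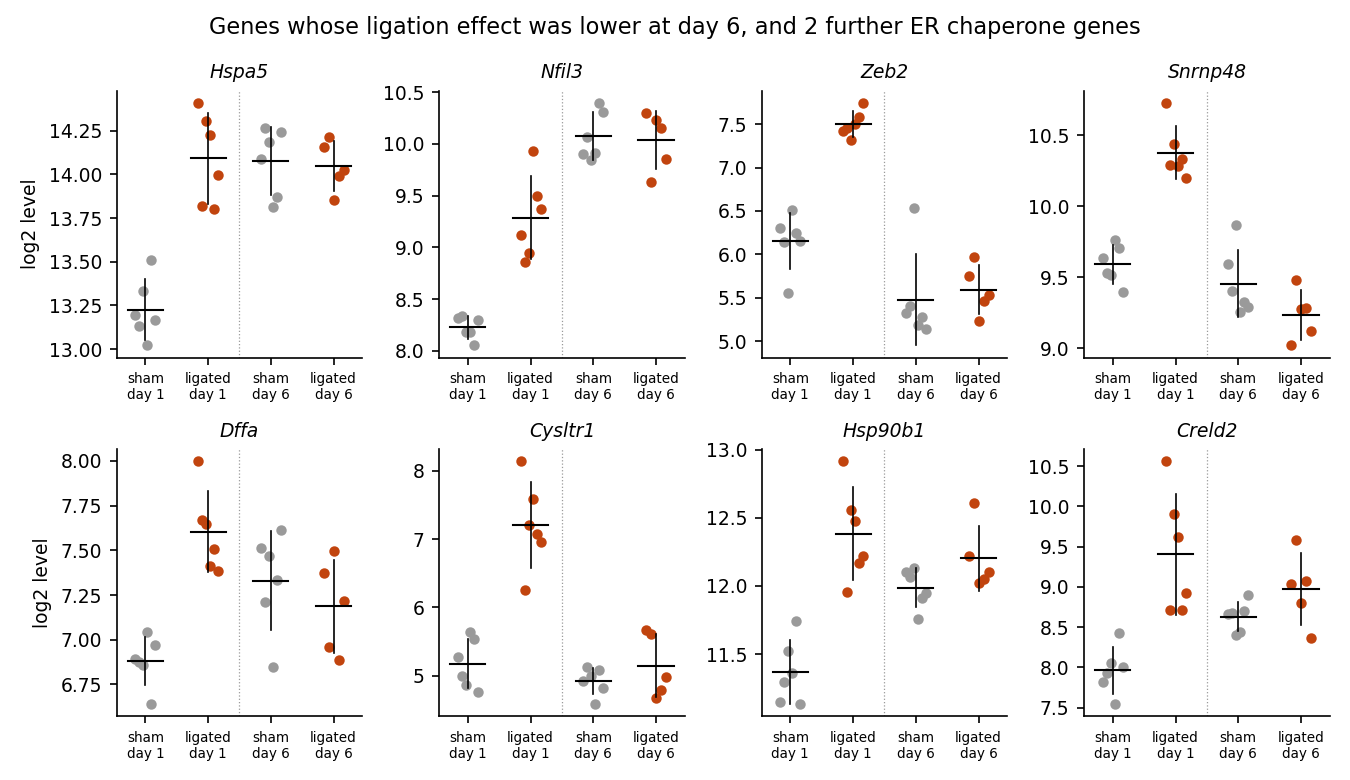
Log2 level of 6 genes whose ligation effect was lower at day 6, and of the ER chaperone genes Hsp90b1 and Creld2, whose change did not pass, 1 point per array with the group mean and SD. At day 1 the ligated arrays (orange) lie above the sham arrays (grey) in all 8 panels, and at day 6 the groups overlap. Cysltr1 was detected only in ligated animals at day 1.

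The annotation used here gives no symbol to 14 of the 33 probes, 2 higher and 12 lower at day 6. ILMN_1352125, named like the next probe after its values were seen, had the largest change of all. Its log2 level at day 1 was 7.99, 8.33 and 8.73 in sham and 5.80, 6.48 and 7.49 in ligated animals, and at day 6 it ran from 6.98 over 7.85 to 8.55 in sham animals and was 7.81, 7.68, 7.75, 9.27 and 10.15 in ligated animals. The groups were apart at day 1, and at day 6 3 of the 5 ligated arrays lay inside the sham range. It fell by 1.80 ± 0.36 at day 1 and had an effect of 0.75 ± 0.38 at day 6, a change of 2.55 ± 0.52 (adjusted p = 0.026) that passed in 16 of the 23 fits without 1 array, with an adjusted p of up to 0.0597 in the others. The most firmly called of the 12, ILMN_1357664, rose by 0.62 ± 0.16 at day 1 and fell by 1.00 ± 0.17 at day 6. Its ligated levels at day 6, at 7.53, 7.06, 7.24, 6.99 and 6.95, lay below all sham arrays of that day, and the change was -1.62 ± 0.23 (adjusted p = 0.00143). This probe and Ccn3 had the smallest p-values of the comparison. The 5 probes that rose at day 1 and fell at day 6 all lacked a symbol.

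The genes with the strongest response to ligation on both days had changes that did not pass, with intervals that leave wide room for a difference. Spp1 (osteopontin, a matrix protein made by macrophages and fibroblasts) had an effect of 4.83 ± 0.98 at day 1 and 4.64 ± 1.03 at day 6. Its ligated levels ran from 7.03 over 12.50 to 13.81 at day 1 and were 9.42, 13.64, 9.60, 10.97 and 11.75 at day 6, so the change of -0.19 had a 95% interval from -3.13 to 2.75. Ligated animals differed among themselves by more than the days did. Timp1, an inhibitor of matrix proteases, had 3.24 ± 0.41 and 2.99 ± 0.43, and its change lay between -1.47 and 0.98. Postn, a matricellular protein of activated fibroblasts, had 2.99 ± 0.45 and 3.39 ± 0.48, with a change between -0.95 and 1.76. For the monocyte chemokine Ccl2, with 2.89 ± 0.62 and 2.84 ± 0.65, the interval was -1.91 to 1.81.

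The changes of Reg3b and Nppa were larger and did not pass either. Reg3b, a secreted C-type lectin induced through gp130 receptors, had an effect of 4.10 ± 0.58 at day 1 and 6.28 ± 0.61 at day 6, with ligated levels of 14.17, 14.95, 12.43, 14.24 and 13.66 on the later day. Its change of 2.18 (95% interval 0.44 to 3.92) had an adjusted p of 0.254. Nppa, atrial natriuretic peptide, ran from 12.97 over 15.05 to 15.61 in ligated animals at day 1 and was 16.07, 15.84, 15.86, 15.74 and 16.03 at day 6, where the sham arrays ran from 12.18 to 13.54. The ligated values of day 6 lie at the top of the scale, which Atp2a2, the calcium pump of the sarcoplasmic reticulum, also reached in sham animals (16.07), so differences may be cut short there. As the scale shows them, the effect was 1.39 ± 0.34 and 2.86 ± 0.36, and the change of 1.47 (95% interval 0.45 to 2.50) had an adjusted p of 0.184. Nppb, the related peptide, had 0.34 ± 0.15 and 0.74 ± 0.16 (change 0.40 ± 0.22, adjusted p = 0.448). The growth factor-like matricellular gene Ccn2, of the same family as Ccn3, had 1.42 ± 0.26 and 1.12 ± 0.27 and a change of -0.31 ± 0.38 (adjusted p = 0.773). The myosin heavy chains Myh6 and Myh7 had changes of 0.24 ± 0.20 and -0.15 ± 0.26 at levels near the upper end of the scale, neither of which passed.

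**Figure D4:**
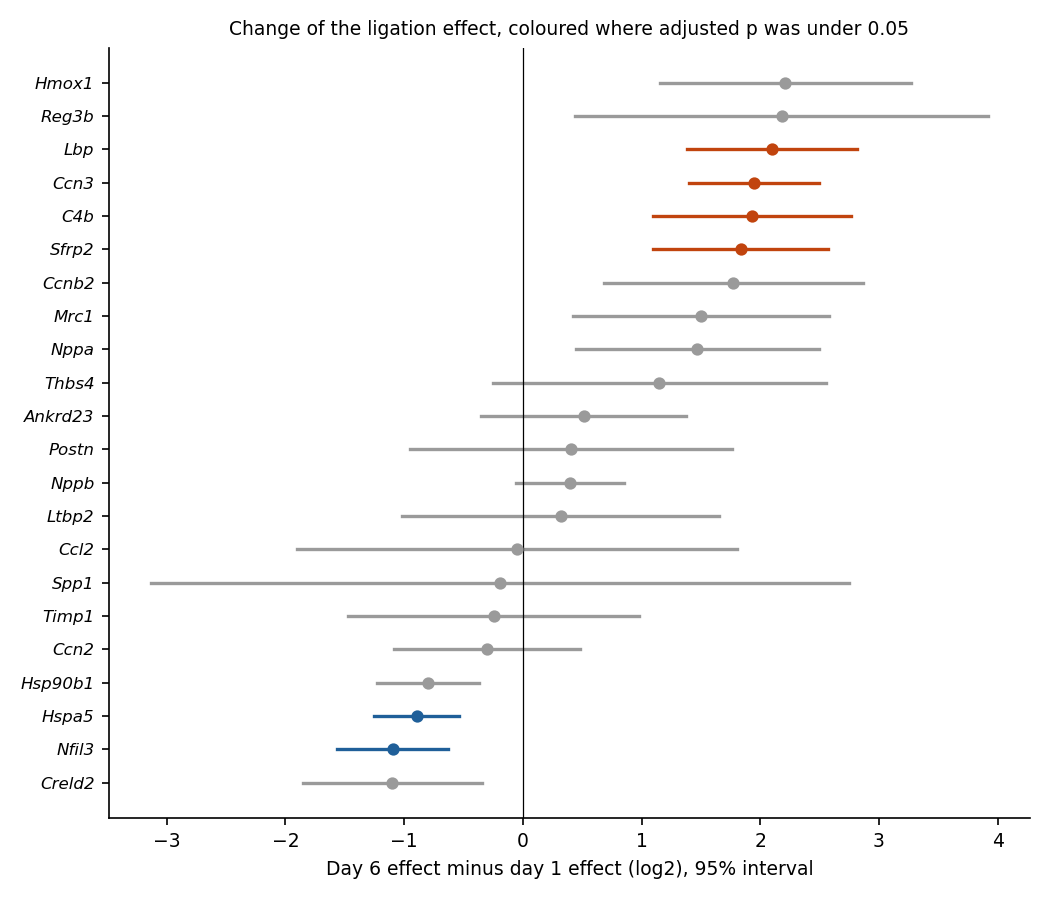
Change of the ligation effect (day 6 minus day 1, log2) with its 95% interval for called genes and for genes of interest that did not pass, the latter in grey. The intervals of Spp1 (-3.13 to 2.75) and Ccl2 (-1.91 to 1.81) are far wider than that of Ccn3 (1.40 to 2.50), and intervals are not adjusted for the number of probes. The Nppa interval rests on levels at the top of the scale.

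Gene lists were described by counts and medians, beside those of all genes. The mitosis list (kinases, kinesins and cyclins of cell division) had 17 of its 40 genes tested, 4 of which passed the filter only through day 6. At day 1 2 of the 17 rose and at day 6 15, where 11.2% and 8.63% of all genes rose. The change passed for none of the 17 (limma, 4 at an unadjusted p under 0.05), its median was 0.70, and all 6 members detected on every array also had a change above 0. Named after their values were seen, Ccnb2, a mitotic cyclin, had 7.03, 7.65 and 8.93 in ligated animals at day 1 and 8.58, 10.96, 9.52, 8.07 and 9.02 at day 6, a change of 1.77 ± 0.53 (adjusted p = 0.128), and Ube2c, which feeds the anaphase-promoting complex, changed by 1.22 ± 0.48 (adjusted p = 0.264). Ligated replicate 2 of day 6 had the highest Ccnb2 level of the 23 arrays. Without ligated replicate 2 of day 1, 7 mitosis genes rose at day 1, and without several other arrays 0 did. Without ligated replicate 2 of day 6, 8 rose at day 6, and without replicates 1 and 2, the 2 brightest arrays, 4 did and the median change was 0.35. With brightness as a covariate 0 rose at day 1 and 15 at day 6, with a median change of 0.88. Median scaling gave 0 and 7, and array weights gave 12 and 9 with a median change of 0.22.

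The list of G1/S and DNA replication genes, which act before mitosis, ran the other way in its counts. Of 20 tested genes, 12 rose at day 1 and 4 at day 6, where 11.2% and 8.63% of all genes rose. The median change was -0.21, 5 of 20 were above 0, and none passed (limma, 2 at an unadjusted p under 0.05). Mcm6 and Mcm2, subunits of the replicative helicase, had effects of 1.55 ± 0.30 and 1.06 ± 0.24 at day 1 and of 1.08 ± 0.31 and 0.71 ± 0.25 at day 6. The number that rose at day 1 was 6 without ligated replicate 1, 3 or 4 of that day, and the number at day 6 was 1 without ligated replicate 2 of day 6. Under median scaling 10 and 0 rose.

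Macrophage and monocyte markers had 16 tested genes, of which 4 rose at day 1 and 13 at day 6, where 11.2% and 8.63% of all genes rose. Median scaling gave 3 and 4, and array weights 6 and 8 with a median change of 0.04, while brightness as a covariate gave 3 and 13. The summed level of the 16 markers (linear scale) ran from 6430 over 10622 to 13131 in sham and from 10373 over 16788 to 25867 in ligated animals at day 1. At day 6 it ran from 8768 over 10822 to 11186 in sham and from 12035 over 26229 to 58851 in ligated animals. Ligated arrays were thus above all sham arrays at day 6 and overlapped them at day 1. The median change was 0.45, 14 of 16 were above 0, and none passed (limma, 6 at an unadjusted p under 0.05). C1qc, a subunit of complement C1q, had 0.20 ± 0.26 at day 1 and 1.37 ± 0.27 at day 6, and the mannose receptor Mrc1 0.16 ± 0.36 and 1.66 ± 0.38, with changes of 1.17 ± 0.38 (adjusted p = 0.167) and 1.50 ± 0.52 (adjusted p = 0.197). Cd14, the co-receptor to which Lbp delivers its ligand, rose on both days (effects 1.42 and 1.75), and so did the signalling adaptor Tyrobp (1.29 and 1.21), with changes of 0.33 ± 0.60 and -0.08 ± 0.49. Ligated replicates 1 and 2 of day 6 were the 2 highest for Mrc1, C1qb and Ctss. Without replicate 2, 8 markers rose at day 6. Without both, 1 marker rose at day 6 and the median change was 0.10. In that limma fit, chosen after seeing the data, 414 probes passed, all 33 of the main fit among them. These included Apoe (1.07, adjusted p = 0.0319), Grn (0.87, adjusted p = 0.013) and Npc2 (0.61, adjusted p = 0.0139), so their passing is not particular to them. Whether these 3 genes follow the macrophage markers was not tested.

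Antioxidant genes and targets of Nfe2l2 showed 1 rise and 9 falls among 31 at day 1, and 6 rises and 1 fall at day 6, where 13.8% of all genes fell at day 1 and 8.63% rose at day 6. Median scaling left 0 rises and 1 fall at day 1 and 3 rises and 0 falls at day 6. The median change was 0.21, 26 of 31 were above 0, and none passed (limma, 9 at an unadjusted p under 0.05), while under median scaling the median change was -0.08, or 0.19 above the shift of all probes. Without ligated replicate 4 of day 1, 4 fell at day 1. Hmox1, which degrades haem, missed the threshold narrowly: it was at 11.93, 12.08, 9.63, 9.49 and 11.21 in ligated animals at day 6, above the sham range of 7.80 to 8.90, and its change was 2.21 ± 0.51 (adjusted p = 0.054). That change passed in 11 of 36 alternatives, among them the fit without the 2 brightest arrays (1.45, adjusted p = 0.0472). Gclc, which makes the limiting step of glutathione synthesis, had 0.24 ± 0.13 and 0.90 ± 0.14, and catalase (Cat) had -0.46 ± 0.14 and 0.14 ± 0.15, with changes of 0.66 ± 0.19 (adjusted p = 0.109) and 0.60 ± 0.21 (adjusted p = 0.204).

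Matricellular and protease genes had 17 of 37 higher on either day, with 6 lower at day 1 and 2 at day 6. Of all genes 11.2% rose and 13.8% fell at day 1, and 8.63% rose and 9.39% fell at day 6. The 6 lower at day 1 were near the share of all genes. The median change of the list was 0.18 (-0.09 under median scaling, still 0.18 above the shift of all probes), and Ccn3 was the member that passed. Fbln1, a fibulin, had a fall of 0.63 ± 0.15 at day 1 and an effect of 0.12 ± 0.16 at day 6 (change 0.74 ± 0.21, adjusted p = 0.116), and Cthrc1, made by activated fibroblasts, had 1.20 ± 0.43 and 3.22 ± 0.45 (change 2.03 ± 0.62, adjusted p = 0.139). Of the 24 cytokine and acute phase genes, 7 rose at day 1 and 11 at day 6 (6 and 7 under median scaling), against 11.2% and 8.63% of all genes. Lbp passed, while the median change was -0.04. Interferon and antigen presentation genes had a median change of 0.26 (0.27 above the shift of all probes under median scaling), and 20 of 25 changes were above 0, while the 3 genes lower at day 1 and the 3 higher at day 6 are near the shares of all genes (13.8% and 8.63%). Some metabolic genes fell on each day, where 13.8% of all genes fell at day 1 and 9.39% at day 6. Among 55 oxidative phosphorylation and TCA cycle genes 22 fell at day 1 and 17 at day 6, with 27 of 55 changes above 0, and of 47 fatty acid genes 17 and 20 fell, with a median change of -0.13. Without ligated replicate 2 of day 6 the falls at day 6 numbered 3 and 7, and without ligated replicate 4 of day 1 the oxidative list had 12 falls at day 1, while without ligated replicate 3 of day 1 the fatty acid list had 11. Under median scaling 0 of the 55 fell on either day and 2 and 12 of the 47 fell. Under the position block, which leaves the day 1 effect poorly determined, 0 fell at day 1 in both lists. Of 29 calcium handling and ion channel genes, 9 fell at day 1 (3 without ligated replicate 3 or sham replicate 2 of that day) and 12 at day 6, against the same shares of all genes. Under median scaling 2 and 10 fell. Trdn (triadin, of the calcium release complex) had -0.51 ± 0.16 and -1.37 ± 0.17 (change -0.85 ± 0.23, adjusted p = 0.097). The mast cell tryptase Tpsb2 had 0.45 ± 0.25 and -1.07 ± 0.27 (change -1.52 ± 0.37, adjusted p = 0.071), although Kit, Fcer1a and Ms4a2, defining markers of mast cells, were detected on no array.

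**Figure D5:**
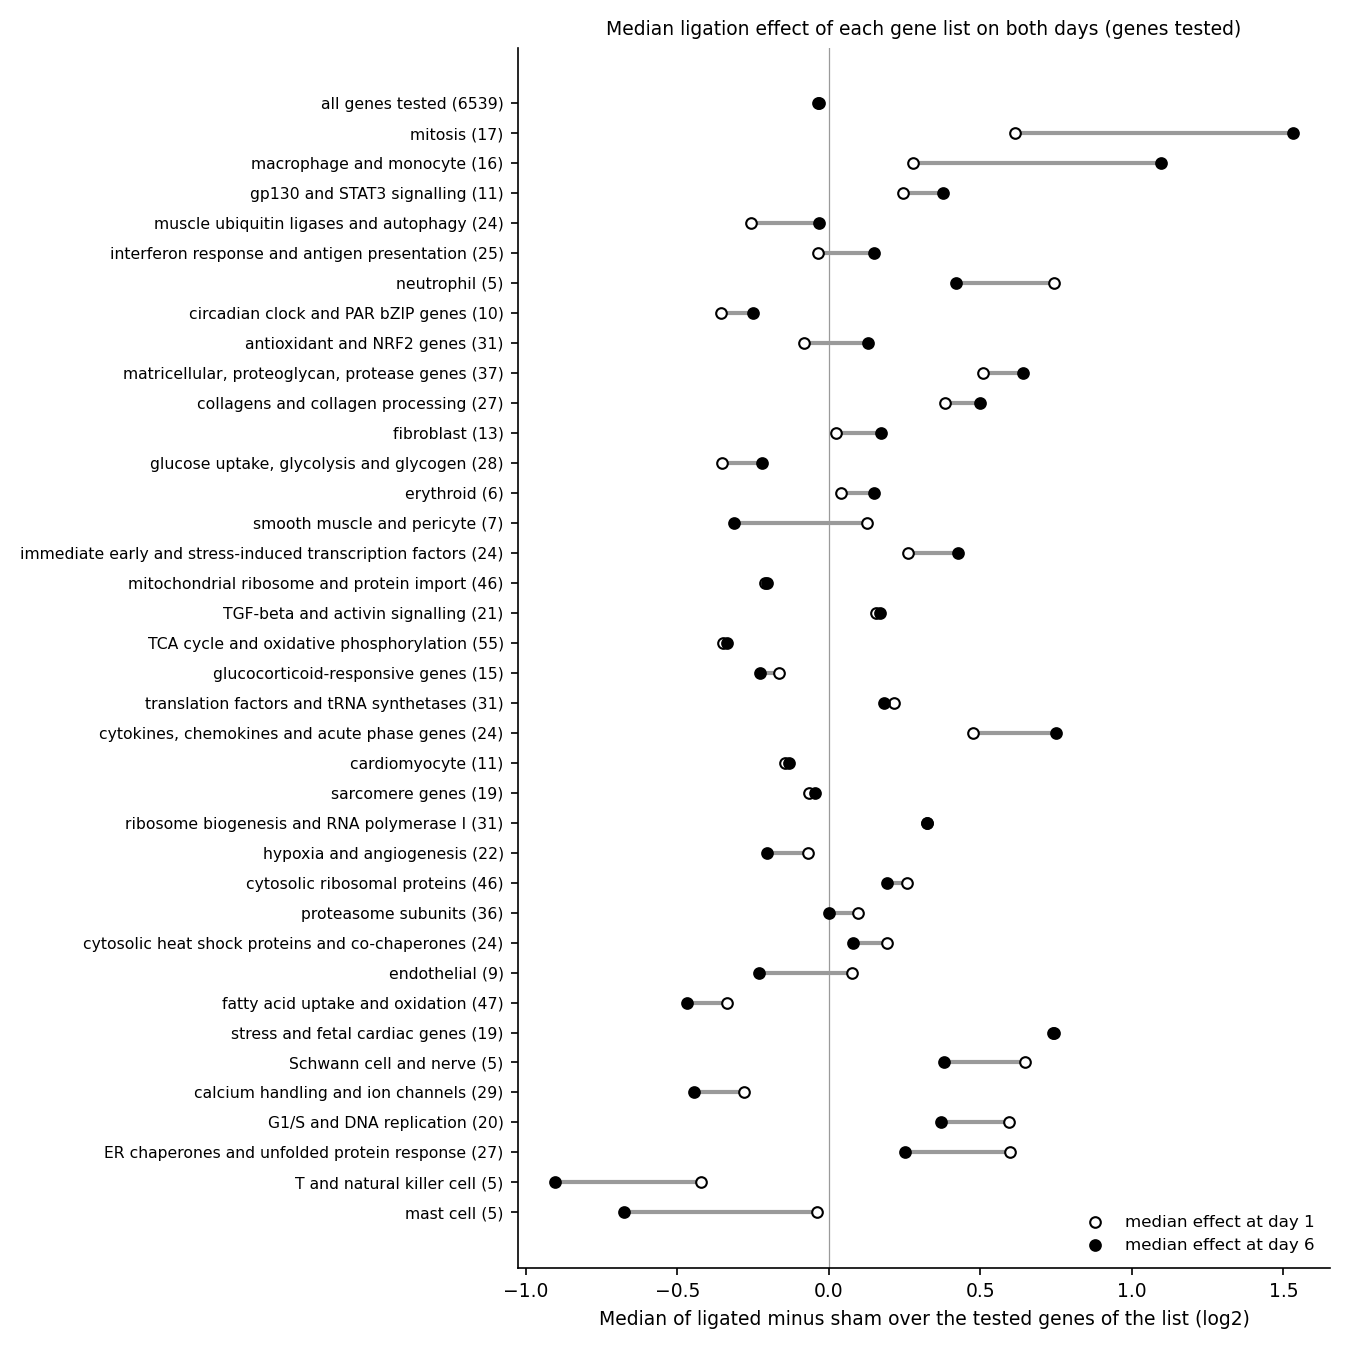
Median ligation effect (log2) over the tested genes of each list with at least 5 genes tested, at day 1 (open circles) and day 6 (filled circles), ordered by the median of the members' changes, with the number of genes tested in brackets. Mitosis and macrophage genes move furthest to the right from day 1 to day 6, and all genes stay near 0. The ER, G1/S and mast cell lists move to the left, as do others, among them the T and natural killer cell, smooth muscle, neutrophil and endothelial lists.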

How the data were processed

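Per the labels' protocols, tissue went into RNAlater, RNA was prepared on RNeasy columns for fibrous tissue and amplified with the Illumina TotalPrep kit. The submitters' processing notes name BeadStudio 3.3 and GenomeStudio without assigning steps. For each day the authors deposited a non-normalised table with a mean scanner intensity, a detection p-value and, as another kind of value, a bead number for every probe and array. The authors also deposited a series matrix of normalised intensity, by a method not given in the sources used here, which served as an alternative. Of the day 6 table, 1 array matches no sample and was not used.

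Each day alone was background-corrected (normexp with offset 16, using detection p-values in place of control probes), quantile-normalised and put on the log2 scale with limma 3.58.1 in R 4.3.3. A fit of 4 group means (lmFit, eBayes) gave both effects and their difference, with Benjamini-Hochberg adjustment over all 8711 probes and a threshold of 0.05. The script was tested on simulated data. Where a gene has several probes, the brightest stands for it. Symbols came from the platform annotation, which names 13793 of 22523 probes. A probe's value averaged a median of 30 to 42 beads, and precision is limited by how many arrays there were.

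The text names the 10 largest passing changes in each direction, up to 4 members of lists with a passing member, genes called in opposite directions, the 8 strongest responders with the same direction on both days, genes undetected in a group, and 14 fixed genes. Other names were chosen after their values were seen. The comparison, members and lists were chosen with earlier results of these data known. Alternatives concerned background, scaling, filter, spread, weights, blocks, brightness and single arrays.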

Additional observations from a re-analysis of the deposited data

Results flagged for a closer look

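The test of the difference between the days set apart 14 probes whose ligation effect was higher and 19 whose effect was lower at day 6. Ccn3, with calls in opposite directions and a change of 1.95, was the only named gene of that kind.

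In 4 of 84 groups of values examined, 1 array stood far from the rest of its group. All 4 were sham groups of day 6, in which Apoe had 1 array at 9.82 and C4b 1 at 6.12, both low, while Zeb2 had 1 at 6.54 and Wdfy1 1 at 7.23, both high. Chance would set apart about 1 in 20 groups. The Apoe and C4b arrays were replicate 6, without which the changes were 1.10 and 1.76 with adjusted p of 0.0692 and 0.0528, and both calls ended. The Zeb2 and Wdfy1 arrays were replicate 3, which of the sham arrays lay farthest from its group, and both calls held without it.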

How the results depend on the processing

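All 33 probes with a passing change kept their direction under every alternative that tested them. This adds little support, since they were picked for small p-values on the same arrays. The number of probes with a higher effect at day 6, 14, was 6 with median scaling, 7 without the detection filter, 406 with array weights and 231 without both of the brightest ligated arrays of day 6, an alternative chosen after seeing the data. The number with a lower effect, 19, was 34 without background correction, 36 with median scaling, 8 without the filter, 55 with the spread of all 6 groups, 411 with array weights, 2 with the position block, 43 with brightness as a covariate and 183 without both brightest arrays. With the replicate number as a block it was 5 higher and 5 lower. Deviations of same-numbered ligated and sham arrays correlated weakly and in either direction (r from -0.26 to 0.23). The labels do not say whether same-numbered arrays are paired. The 2144 calls at day 1 became 1000 with median scaling, 3685 with array weights and 48 with the position block. The 1504 calls at day 6 became 442 with median scaling, 968 with the replicate block, 948 with a separate fit per day and 746 without both brightest arrays. Leaving out single arrays gave 5 to 36 higher, 8 to 62 lower, 1423 to 2619 calls at day 1 and 849 to 1763 at day 6. The cause of these differences was not tested. Fits that leave arrays out also rest on fewer arrays, and some of them gave more calls. Probes near the detection limit have little signal over background, which limits Sfrp2, Zeb2, Dynlt2b and Cysltr1.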
